A study of Mus musculus with 5 samples.

Results

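Akt-spheres of line 21 were compared with embryonic stem (ES) cells of the same line, both kept in 4-hydroxytamoxifen (4OHT). The comparison rests on 2 of the 5 arrays of the series, chosen by their titles alone, with 1 array on each side. Line 21 is 1 ES cell line of strain 129, male, derived from the feeder-free line E14tg2a. It carries myr-Akt-Mer, in which membrane-targeted Akt is joined to a hormone-binding domain (Mer), so that 1 µM 4OHT switches the kinase on. The ES cells with 4OHT had stayed in ES cell culture, and how long they had been treated is not given in the sources used here. For the spheres, 4OHT was begun 3 days before the cells were placed on OP9, a mouse bone marrow stromal line used to turn ES cells into blood. The spheres were then expanded in OP9 medium with 4OHT and moved every 4 days to fresh OP9 cells, which were removed before use by plating on a dish for 30 minutes. The other 3 arrays serve for orientation. They are line 21 ES cells without 4OHT, Akt-spheres of a second line (line 42, also with 1 µM 4OHT on OP9), and reverted cells, ES-like cells obtained from line 21 by transient 4OHT treatment on mouse embryonic fibroblasts. All 5 carry the kinase construct, and no ES cell array of line 42 was analysed here. Line and kinase switch are the same on both sides, but OP9 contact, medium, sphere growth, time in culture and the array itself all differ together and cannot be told apart.

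Naive ES cells resemble the inner cell mass of the blastocyst and are held in that state by a network of transcription factors, fed by leukemia inhibitory factor (LIF) through Stat3. As the embryo implants, this network is dismantled and the epiblast turns on formative and primed genes such as Fgf5 and Otx2. Primordial germ cells (PGCs), the founders of eggs and sperm, arise from that epiblast when BMP and Wnt signals switch on Prdm1, Prdm14 and Tfap2c, and they turn parts of the pluripotency network on again. Akt relays growth factor signals from PI3-kinase to metabolism, survival and the cell cycle. The comparison asks what separates the sphere state from ES cells in which the same kinase is switched on.

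The 22871 probes of an array had a median intensity of 49.995 to 50.015 where a value was given, and their sum was lowest on the line 21 sphere array and highest in ES cells with 4OHT. Between 6.09% and 9.11% of probes had no value. Intensities below are the deposited values on a linear scale. A log2 difference is taken from log2(intensity + 1) after each array was centred on its median, and a fold is 2 to the power of that difference. Intensities of different genes are not comparable, because probes differ in brightness. Nothing says that the arrays are repeats of a culture, and with 1 array on each side there is no replicate check, so no p-value or standard error is given. Markers named for ES cells and PGCs are treated with their groups below. Of the OP9 stroma markers, 28 were on the array. Their summed intensity was 3834 in line 21 spheres, 3355 and 4318 in ES cells with and without 4OHT, 5658 in reverted cells and 1318 in line 42 spheres. Fn1 (fibronectin), which ES cells also express, made up 1386 of the sum in line 21 spheres and 1120.2 in ES cells with 4OHT, so the sum does not measure stromal RNA. Stromal collagen genes differed in brightness in line 21 spheres, with Col1a1 at 17.5 and Col3a1 at 19.8, but Col1a2 at 101 and Col5a1 at 310.3 (against 53.5 and 69.4 in ES cells with 4OHT). Summed adipocyte markers lay between 1057 and 1261 on all 5 arrays, fibroblast markers at 742 in line 21 spheres within a range of 360.1 to 1112, and macrophage markers at 303, the lowest of the 5.

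Spheres and ES cells of the same line, both with 4OHT, differed by at least 2-fold at 26.5% of the 10208 genes compared. A gene was compared when both arrays listed it and it was not under the 40th percentile on both, an intensity of 29.1 for ES cells and 29.2 for spheres. In line 21 spheres 1294 genes were at least 2-fold higher (12.7%) and 1408 were at least 2-fold lower (13.8%). Every list count below is to be read beside these shares, and no list was tested against them. At least 8-fold apart were 113 higher and 170 lower genes. The median difference over all genes was -0.01 on the log2 scale and Pearson's r across genes, which are not independent replicates, was 0.871. For scale, ES cells with and without 4OHT differed by 2-fold at 4.95% of genes, reverted cells and ES cells without 4OHT at 11.5%, and the sphere arrays of lines 21 and 42 at 15.7%.

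**Figure D1:**
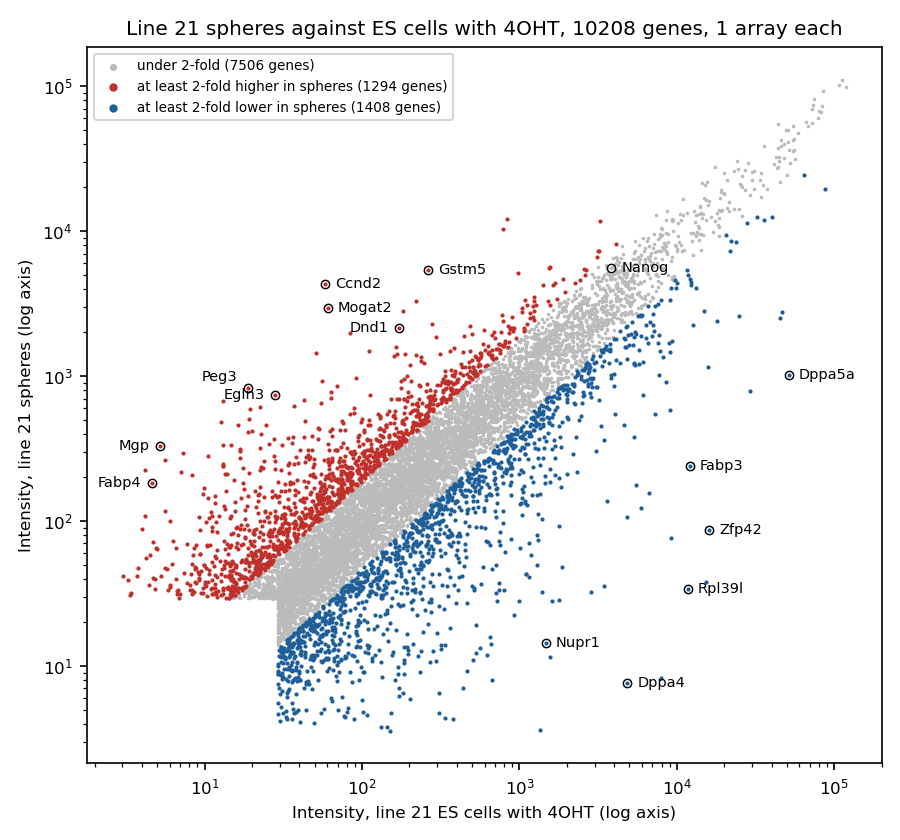
Intensity of each of the 10208 genes on the ES cell array with 4OHT (horizontal, log axis) and the line 21 sphere array (vertical, log axis), 1 array each, red where at least 2-fold higher in spheres (1294 genes) and blue where at least 2-fold lower (1408). Zfp42, Dppa4 and Fabp3 lie far below the diagonal, Ccnd2, Mogat2 and Gstm5 far above it, and Nanog lies close to it.

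The genes with the largest differences among those reading at least 100 on either array were a mixture of ES cell markers, ribosomal variants and developmental genes. Ccnd2, a D-type cyclin that drives G1 progression, stood at the top with 77.6-fold. It read 57.9 in ES cells with 4OHT and 4300.3 in line 21 spheres, against 108 without 4OHT, 214 in reverted cells and 945 in line 42 spheres. Both sphere arrays were above the other arrays, the line 21 array by far the most. Next came Mgp, a matrix inhibitor of calcification (5.21 and 328), Mogat2, an acyltransferase of triglyceride synthesis (60.5 and 2967), Igfbpl1 (13.1 and 674) and the peptide ligand Apln (4.19 and 224), each given for ES cells with 4OHT and then line 21 spheres. The other 10 were Peg3, Fabp7, 3830403N18Rik, Bcl11a, Fabp4, Olig3, Cpeb1, Ptn, Efemp1 and Rgs16, with log2 differences from 5.48 down to 4.79. Bcl11a, a transcriptional repressor of lymphoid and neural cells, and Olig3, a bHLH factor of the neural tube, were bright in line 21 spheres alone. Bcl11a read 479 in line 21 and 9.45 in line 42 spheres, 12.6 and 30.3 in ES cells with and without 4OHT, and 29.2 in reverted cells. Olig3 read 594 in line 21 and 22.1 in line 42 spheres, 19.5 and 16.4 in ES cells with and without 4OHT, and 21.1 in reverted cells.

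On the lower side the largest difference belonged to a probe annotated to the ribosomal protein gene Rpl10, which read 7892 in ES cells with 4OHT and 8.24 in line 21 spheres, against 3696 without 4OHT, 241 in reverted cells and 171 in line 42 spheres. It was followed by Dppa4, Rps4l, Rpl39l, Zscan4c, Zfp42, Dppa2, Mylpf, Nupr1, Pla2g1b, Ooep, Fmr1nb, Myo1f, Fthl17e and Jam2, with log2 differences from -9.03 to -5.82. Rps4l and Rpl39l are relatives of the ribosomal protein genes Rps4x and Rpl39, and Mylpf encodes a fast muscle myosin light chain. Rps4l read 15352 in ES cells with 4OHT and 38.1 in line 21 spheres, against 15508 without 4OHT, 11316 in reverted cells and 996 in line 42 spheres. Rps4l was thus high on every line 21 array grown in ES-type culture and low in both sphere arrays. Rpl39l, in contrast, was also low in reverted cells, at 208 against 7387 in ES cells without 4OHT. Whether the probes of Rpl10, Rps4l, Rpl39l, Zscan4c and other genes with near-identical copies tell those copies apart was not tested. For Pla2g1b, a secreted phospholipase, the probe used gave -6.48 while its other probe gave -0.80.

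A further 8 genes read at least 100 in ES cells with 4OHT and had no value in line 21 spheres, and none did the reverse. They were Ak7, Cdkn1c, Defcr3, Gsta3, Llgl2, Rhox13, Spink10 and Triml1. Cdkn1c, an imprinted inhibitor of cyclin-dependent kinases, read 3171 in ES cells with 4OHT, 1367 without 4OHT, 2790.4 in line 42 spheres and 20.0 in reverted cells. It was thus without a value or dim in both line 21 derivatives and bright in line 42 spheres. Llgl2, a cell polarity gene, had no value in either sphere array and read 406 and 383 in ES cells with and without 4OHT. Why the cells are empty is not given in the sources used here, so no fold was computed.

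Genes of the naive state were low in the spheres almost as a block. Of 26 compared members, 22 were at least 2-fold lower and 0 higher, and the median log2 difference was -4.20, against -0.01 over all genes. The list was written with earlier results of these data known, so its count and median are no independent check. Zfp42 (also called Rex1), a zinc-finger protein whose loss marks exit from the naive state, read 15996 in ES cells with 4OHT and 86.1 in line 21 spheres, against 14177 without 4OHT, 11370.2 in reverted cells and 1029.8 in line 42 spheres. Dppa4, which with Dppa2 opens early embryonic genes, read 4803 in ES cells with 4OHT and 7.65 in line 21 spheres, against 4619 without 4OHT, 1733 in reverted cells and 499.6 in line 42 spheres. The line 21 sphere array was lowest for both, line 42 spheres lay in between, and reverted cells were closer to ES cells. In a bulk RNA sample, fewer cells expressing a gene and less RNA per cell cannot be told apart.

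Transcription factors of the network differed in how far they were lower. Nr0b1, an orphan nuclear receptor, was 42.6-fold lower, Tbx3, a T-box factor, 41.0-fold, Klf4 7.62-fold, Klf5 7.55-fold and Klf2 3.37-fold. Nr0b1 read 106 in line 21 and 104 in line 42 spheres, 4854 and 4210.2 in ES cells with and without 4OHT, and 3105 in reverted cells. Klf4 and Klf5 were likewise low on both sphere arrays, which lay between 60.4 and 134, against the other 3 between 613 and 1573. Klf2 differed, since line 42 spheres at 774 were level with ES cells (819 with 4OHT, 876 without) and only line 21 spheres were low, at 228. Nr5a2, a nuclear receptor, was under 2-fold lower than in ES cells with 4OHT, at 234 against 410.3, but ES cells without 4OHT read 793, reverted cells 1209 and line 42 spheres 63.9, and against ES cells without 4OHT its log2 difference was -1.80.

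Other genes of the naive list included signalling and surface proteins. Dppa5a, an RNA-binding protein abundant in ES cells, read 51355 in ES cells with 4OHT and 1014 in line 21 spheres, against 58362 without 4OHT, 49687 in reverted cells and 6732 in line 42 spheres. Fgf4, the FGF ligand that ES cells make themselves, was 17.7-fold lower (362 and 18.3). Eras, a Ras-like activator of PI3-kinase found in ES cells, and Tcl1, a cofactor that binds Akt, had log2 differences of -4.25 and -4.69. Tdgf1 (Cripto), the Nodal co-receptor, was 2.73-fold lower, at 12375 and 4263. The 4 compared members less than 2-fold apart were Nr5a2, Gbx2, Dppa3 and Prdm14, of which the last pair also belongs to the PGC list. Against ES cells without 4OHT the list's median was -4.46, and for line 42 spheres against those cells it was -3.71.

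Pluripotency factors shared by naive and primed cells did not follow the naive genes. Nanog, a homeodomain factor of both ES cells and PGCs, read 3839 in ES cells with 4OHT and 5523 in line 21 spheres, against 5479.7 without 4OHT, 4538 in reverted cells and 4003 in line 42 spheres. Its sphere values lay within the range of the 3 other arrays or just above it. Of 8 compared members of the shared list, 1 was at least 2-fold higher (Otx2) and 1 lower (Lin28a), with a median of -0.06. Sall4, Rif1 and Zfp281 were each less than 2-fold apart, with log2 differences of 0.34, -0.25 and 0.13. Lin28a, an RNA-binding protein that blocks let-7 maturation, read 802 and 352 and was not lower in line 42 spheres (868). Utf1, a chromatin protein of ES cells, was 2821 in line 21 and 7842 in line 42 spheres, against 5125 and 7534 in ES cells with and without 4OHT. Pou5f1 and Sox2 were not analysed here.

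**Figure D2:**
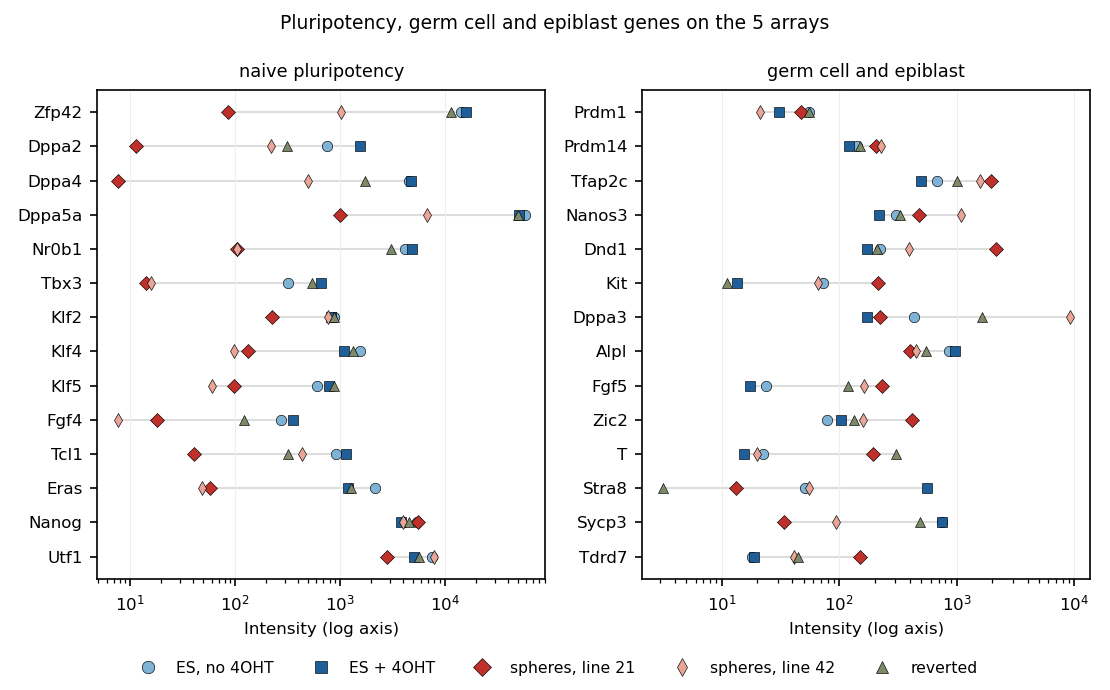
Intensity (log axis) of 14 pluripotency genes and 14 germ cell and epiblast genes on each of the 5 arrays, 1 symbol per array. In line 21 spheres (large red diamonds) most naive genes stand at the left end of their row while Nanog does not, and Tfap2c, Dnd1, Kit and Fgf5 stand at the right end.

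Formative and primed epiblast genes were higher in line 21 spheres in 8 of 14 compared members and lower in 2, with a median of 1.14. Fgf5, the usual marker of post-implantation epiblast, read 17.5 in ES cells with 4OHT and 232 in line 21 spheres, against 23.9 without 4OHT, 119 in reverted cells and 161 in line 42 spheres. Zic2 and Zic5, zinc-finger factors of the epiblast, read 103 and 413 and 101 and 232. Fst (follistatin, which binds activin) and Cdh2 (N-cadherin) were 6.54-fold and 6.18-fold higher. Lefty1, a Nodal inhibitor, was 3.20-fold higher, but its 4218 lay near the 3260.4 of ES cells without 4OHT and the 4338 of reverted cells, so the array of ES cells with 4OHT was the low one. Otx2, a homeodomain factor of the epiblast, was also not above ES cells without 4OHT, and it read 263, 634, 146, 681 and 1549 in ES cells with 4OHT, line 21 spheres, line 42 spheres, ES cells without 4OHT and reverted cells. Against ES cells without 4OHT the list's median was 0.17, and for line 42 spheres it was -1.04. The lower members were Dnmt3a, a de novo DNA methyltransferase (638 and 154), and the ephrin receptor Epha4.

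PGC specification genes were divided. Of 16 compared members, 7 were higher and 2 lower by 2-fold or more, with a median of 0.77. Among the 3 specification factors, Tfap2c (AP-2 gamma) was 4.15-fold higher, and it read 1943 in line 21 and 1581 in line 42 spheres, 497 and 678 in ES cells with and without 4OHT, and 998 in reverted cells. Both sphere arrays exceeded the other 3. Prdm14 stood at 205 against 121 and Prdm1 (Blimp1) at 47.4 against 30.8, each less than 2-fold apart, and Prdm1 was no higher than in ES cells without 4OHT (55.8). Of the genes that protect young germ cells, Nanos3, an RNA-binding repressor, read 476 in line 21 and 1084 in line 42 spheres, 219 and 304 in ES cells with and without 4OHT, and 326 in reverted cells. Dnd1, an RNA-binding protein needed for germ cell survival, was 13.2-fold higher and read 2142 in line 21 and 393 in line 42 spheres, 172 and 223 in ES cells with and without 4OHT, and 208 in reverted cells. Kit, the receptor for stem cell factor, read 213 in line 21 and 66.5 in line 42 spheres, 13.4 and 73.0 in ES cells with and without 4OHT, and 11.2 in reverted cells. Dnd1 and Kit were thus highest in line 21 spheres, and Nanos3 in line 42 spheres.

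T (Brachyury), a mesoderm factor that precedes PGC fate, was 12.6-fold higher, at 193 in line 21 spheres against 15.4 in ES cells with 4OHT. It was also high in reverted cells (305) but not in line 42 spheres (19.9). Dppa3 (Stella), the standard marker of early PGCs, read 223 in line 21 spheres, against 171 and 435 in ES cells with and without 4OHT. It read 9198 in line 42 spheres and 1626 in reverted cells. Alpl, the alkaline phosphatase used to stain PGCs and ES cells alike, was lower in line 21 spheres, at 400.3 against 964. Ifitm3 (Fragilis), a surface protein of early PGCs, read 2285 and 2455. The chemokine receptor Cxcr4, which guides migrating PGCs, was 2.66-fold higher but dim, at 46.8 against 18.1. Of the PGC list members given here, Tfap2c, Nanos3, Dnd1, Kit, T and Cxcr4 were at least 2-fold higher than in ES cells with 4OHT. Prdm1, Prdm14, Dppa3 and Ifitm3 were under 2-fold apart from those cells, and Alpl was lower. Against ES cells without 4OHT, Nanos3 was under 2-fold higher, with a log2 difference of 0.60, and Dppa3 was just over 2-fold lower (-1.01).

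Genes of later germ cells and of meiosis were more often lower than higher. Of 23 compared members 12 were at least 2-fold lower and 3 higher, with a median of -1.71. The lower ones include Dppa2 and Rpl39l, which also belong to the naive and ribosomal lists. Against ES cells without 4OHT the median was -0.85. For line 42 spheres against those cells it was -0.01, with 6 of 24 lower and 3 higher. Stra8, the retinoic acid target that admits germ cells to meiosis, read 559.8 in ES cells with 4OHT and 13.4 in line 21 spheres, against 50.7 without 4OHT, 3.15 in reverted cells and 54.9 in line 42 spheres. For Stra8 the ES cell array with 4OHT was the only high one. Sycp3, of the synaptonemal complex, and Zp3, an egg coat protein, were 20.2-fold and 24.8-fold lower. Sycp3 read 33.6 in line 21 and 94.7 in line 42 spheres, 742 and 752 in ES cells with and without 4OHT, and 487 in reverted cells. Mael and Gtsf1, which act in the piRNA defence against transposons, were 27.9-fold and 13.4-fold lower, while Tdrd5 and Tdrd7, Tudor proteins of the same germ granules, were 7.60-fold and 8.08-fold higher. Tdrd7 read 149 in line 21 spheres and 41.2 in line 42 spheres, against 18.8 in ES cells with 4OHT. Ddx25, a testis RNA helicase, was 5.13-fold higher. Ddx4 (Vasa), the general marker of gonadal germ cells, was level on both arrays (405 and 385, a log2 difference of 0.01), and Dazl was lower, at 6.71 against 30.9.

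Some maternal and 2-cell-stage genes were lower in line 21 spheres. Of 9 compared members of the maternal oocyte complex list, 4 were at least 2-fold lower (Ooep, Khdc3, Nlrp4f and Padi6) and 0 higher, and Oosp1, an oocyte-secreted protein, was level (246 and 229). Ooep read 2845 in ES cells with 4OHT and 32.5 in line 21 spheres, against 3172 without 4OHT, 2013 in reverted cells and 73.0 in line 42 spheres, and Khdc3, its partner in the subcortical complex of eggs, read 294 in ES cells with 4OHT and 10.8 in line 21 spheres, against 551 without 4OHT, 20.2 in reverted cells and 9.54 in line 42 spheres. Of 2 compared members of the 2-cell list 1 was at least 2-fold lower (Zscan4c), and Eif1a, a translation factor, read 2036 and 1077. Zscan4c, a telomere-lengthening factor of the 2-cell-like state that flickers on in ES cultures, read 1347 in ES cells with 4OHT, 1058 without 4OHT and 3.59 in line 21 spheres. Line 42 spheres read 12913 and reverted cells had no value, so the sphere arrays were at opposite ends for this gene.

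Some genes that low oxygen induces were higher in spheres, and others were level. Cells sense oxygen through prolyl hydroxylases (the Egln proteins) that mark HIF transcription factors for destruction, and HIF induces its own hydroxylases, vessel-forming ligands and glycolytic regulators. Of 23 compared members, 10 were higher and 1 was lower by 2-fold or more, 12 were under 2-fold apart, and the median was 0.79. Among the sensors, Egln3 read 745 in line 21 and 707 in line 42 spheres, 28.0 and 92.1 in ES cells with and without 4OHT, and 79.8 in reverted cells, and Egln1 read 269 in line 21 and 308 in line 42 spheres, 46.0 and 62.1 in ES cells with and without 4OHT, and 83.9 in reverted cells. Both sphere arrays exceeded all ES-type arrays for these genes. Among ligands, Adm (adrenomedullin) read 279 against 27.4 and Apln (apelin) 224 against 4.19, while Vegfa was 59.6 against 32.9, under 2-fold. Among effectors, Ankrd37 read 368 in line 21 and 804 in line 42 spheres, 27.4 and 56.9 in ES cells with and without 4OHT, and 53.5 in reverted cells. Pfkfb3, which speeds glycolysis by making fructose 2,6-bisphosphate, was 11.7-fold higher, Ero1a, an oxidase of protein folding, 4.82-fold, Bnip3l, a mitophagy receptor, 3.84-fold and P4ha2, a collagen prolyl hydroxylase, 2.71-fold. Hif3a was also higher (28.1 and 98.4), Hif1a was not (392 and 328), Kdm3a, a histone demethylase, and Mxi1, a Myc antagonist, were level (log2 differences of -0.03 and -0.11) and lower in line 42 spheres than in ES cells without 4OHT (-1.83 and -1.62), and Epas1 (HIF-2 alpha) was the 1 lower member, at 30.1 and 6.36. Against ES cells without 4OHT the median was 1.38, and for line 42 spheres against them 1.33. Oxygen level is not given in the sources used here.

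HIF binds DNA at the short core ACGTG, and the promoters of some of these genes carry it close to their start, as the windows below show. The sequence upstream of the start was searched on both strands over 250 bases in the promoter table built from RefSeq on GRCm38.p6. The core was found in 16.6% of all 32851 windows and in 14 of 24 windows of list members. Of the 9 windows of members at least 2-fold higher, 6 held it (Egln1, Egln3, Ankrd37, Ero1a, P4ha2 and Pfkfb3). Lists treated below for other reasons also exceeded the share over all windows. The core was in 8 of 22 windows of the amino acid stress list (36.4%) and 5 of 14 of the serine and one-carbon list (35.7%). A match describes letters and does not show binding. Windows end at the base before the start and are written 5′ to 3′ on the gene's strand, with the core in capitals in either orientation. Egln3 (chr12:54203875-54204124, minus strand), Egln1 (chr8:124949255-124949374, minus strand) and Ero1a (chr14:45318573-45318692, minus strand) are from the oxygen list, and Slc16a3 (chr11:120948947-120949066, plus strand) is from the glucose list, chosen because its window holds 2 matches.
Egln3: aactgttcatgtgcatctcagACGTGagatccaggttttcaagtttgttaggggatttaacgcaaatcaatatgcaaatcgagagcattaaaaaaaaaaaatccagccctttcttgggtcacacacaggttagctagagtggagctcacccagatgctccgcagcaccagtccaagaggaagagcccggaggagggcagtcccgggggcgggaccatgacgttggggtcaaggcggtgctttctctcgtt
Egln1: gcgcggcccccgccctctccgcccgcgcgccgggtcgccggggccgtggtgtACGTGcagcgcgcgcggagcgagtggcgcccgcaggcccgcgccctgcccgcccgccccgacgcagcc
Ero1a: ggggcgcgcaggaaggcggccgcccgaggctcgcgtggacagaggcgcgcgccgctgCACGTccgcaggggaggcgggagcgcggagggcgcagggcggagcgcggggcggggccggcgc
Slc16a3: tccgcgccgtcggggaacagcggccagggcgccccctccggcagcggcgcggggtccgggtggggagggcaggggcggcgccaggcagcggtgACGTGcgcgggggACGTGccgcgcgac

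Glucose genes were selective. Of 29 compared members 7 were 2-fold or more higher and 2 lower, with a median of 0.22. Slc16a3, which exports lactate, read 5160.4 in line 21 and 6132 in line 42 spheres, 979 and 2672 in ES cells with and without 4OHT, and 3564 in reverted cells. Pygl, the phosphorylase that releases glucose from glycogen, read 334 in line 21 and 364 in line 42 spheres, 13.0 and 9.41 in ES cells with and without 4OHT, and 8.42 in reverted cells, and Pgm2, a phosphoglucomutase, read 1260.2 in line 21 and 1851 in line 42 spheres, 480.4 and 604 in ES cells with and without 4OHT, and 251 in reverted cells. These 3 were higher on both sphere arrays than on any ES-type array. Several abundant core enzymes did not share the difference, with Ldha at 23858 against 25867, Pgk1 at 19133 against 19149 and Aldoa at 26709 against 24453. The other probe of Aldoa gave a log2 difference of -0.63, against 0.22 for the one used. Others differed more, with Gpi1 2.07-fold higher and Eno1 at 10634 against 18643, under 2-fold lower. The glucose transporter Slc2a3 read 12869.9 against 7325 and Slc2a1 1241 against 2611, just under 2-fold in opposite directions. Pfkp, a phosphofructokinase, was lower (339.8 against 1095) while Pfkl and Pfkm, the other isoforms, were 2.20-fold and 2.05-fold higher. Of 33 compared respiratory chain genes, 0 were at least 2-fold higher and 1 lower (Atp5o), with a median of -0.19.

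**Figure D3:**
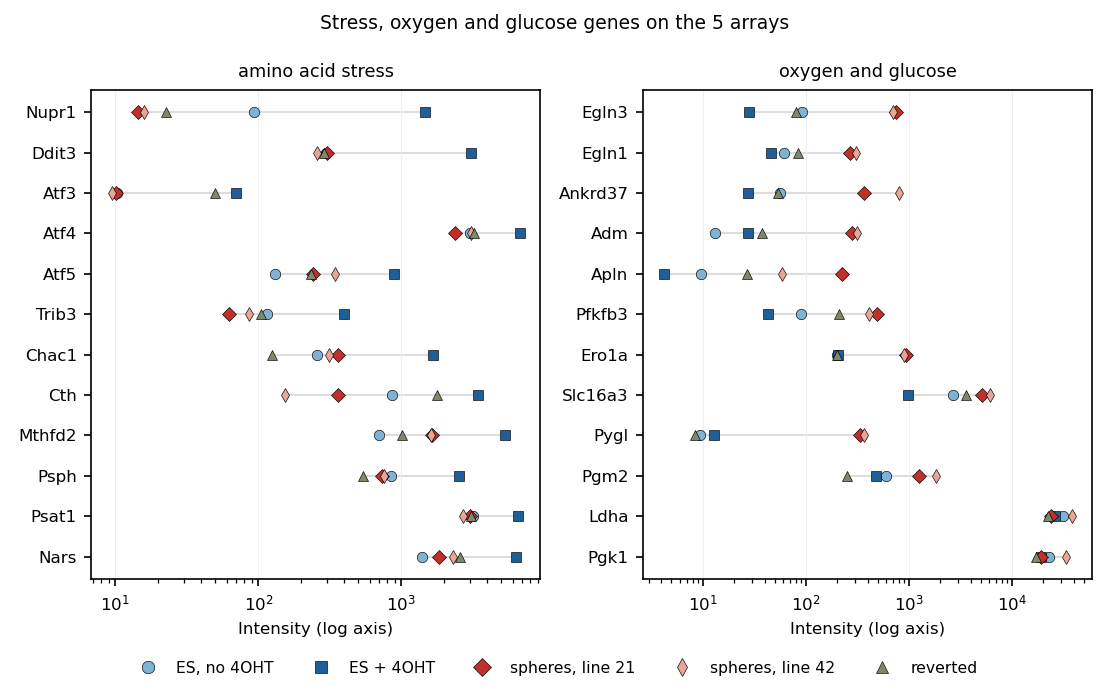
Intensity (log axis) of 12 amino acid stress genes and 12 oxygen and glucose genes on each of the 5 arrays, 1 symbol per array. On the left the ES cell array with 4OHT (dark blue squares) stands apart to the right of the other 4 for most genes, and on the right both sphere arrays (diamonds) stand to the right for Egln3, Egln1, Ankrd37, Adm, Ero1a and Pygl.

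A group of amino acid stress genes was lower in spheres than in ES cells with 4OHT, and for the brightest of them the ES cell array was the one that stood apart. When amino acids run short or proteins misfold, Atf4 and its target Ddit3 (CHOP) turn on genes for amino acid uptake, synthesis and tRNA charging. Of 19 compared members 9 were at least 2-fold lower, 2 higher and 8 under 2-fold apart (among them Dnajb9, Cebpg, Ddit4 and Stc2), with a median of -0.94. Ddit3 read 3073 in ES cells with 4OHT and 303 in line 21 spheres, against 297 without 4OHT, 288 in reverted cells and 257 in line 42 spheres. Nupr1, a small stress-induced chromatin protein, read 1467 in ES cells with 4OHT and 14.4 in line 21 spheres, against 93.8 without 4OHT, 22.6 in reverted cells and 15.9 in line 42 spheres, and Chac1, which breaks down glutathione, read 1660.4 in ES cells with 4OHT and 363 in line 21 spheres, against 258 without 4OHT, 124 in reverted cells and 314 in line 42 spheres. For Ddit3, Nupr1, Chac1, Atf4 and Atf5 the other 4 arrays all lay well below that of ES cells with 4OHT. The list's median against ES cells without 4OHT was -0.03. The higher members were Vldlr, a lipoprotein receptor (386 in line 21 and 255 in line 42 spheres, 48.1 and 17.9 in ES cells with and without 4OHT, and 33.7 in reverted cells), and Hspa5, the main chaperone of the endoplasmic reticulum (3127 and 6598). Hspa5 was under 2-fold above ES cells without 4OHT (4119), and line 42 spheres read 3630 and reverted cells 7248.

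Enzymes of serine and one-carbon metabolism were lower in part. Of 14 compared, 6 were at least 2-fold lower and 0 higher. Mthfd2, the mitochondrial folate enzyme, read 5266, 1648, 1621, 695 and 1013 in ES cells with 4OHT, line 21 spheres, line 42 spheres, ES cells without 4OHT and reverted cells. In the same order Psat1, of serine synthesis, read 6539, 3021, 2702, 3157 and 3084. Both were highest in ES cells with 4OHT, and Psat1 was level on the other 4. Cth, which makes cysteine, was lower than in either ES cell array, at 364 in line 21 and 154 in line 42 spheres against 3442 with and 864 without 4OHT. Of 16 tRNA synthetases 3 were at least 2-fold lower (Yars, Wars and Nars) and 0 higher, and of 12 amino acid transporters 6 were lower and 1 higher. Slc3a2, the shared heavy chain of several transporters, read 4082 and 1813, with 1946 in ES cells without 4OHT.

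The joint element of CHOP and ATF4 was searched as TGATGNAA on both strands of the same 250-base windows. It was present in 3.45% of all windows, in 6 of 22 windows of the stress list and in 4 of the 9 windows of its lower members (Atf3, Chac1, Nupr1 and Herpud1). The window of the higher member Vldlr held it too. Stretches from 3 of the lower members are printed as above, with the element in capitals, to show where it lies: Atf3 (chr1:191183334-191183473, minus strand), Herpud1 (chr8:94386289-94386428, plus strand) and Chac1 (chr2:119351042-119351241, plus strand).
Atf3: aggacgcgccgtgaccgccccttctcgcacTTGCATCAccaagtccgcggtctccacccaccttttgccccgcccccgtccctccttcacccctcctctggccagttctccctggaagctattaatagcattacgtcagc
Herpud1: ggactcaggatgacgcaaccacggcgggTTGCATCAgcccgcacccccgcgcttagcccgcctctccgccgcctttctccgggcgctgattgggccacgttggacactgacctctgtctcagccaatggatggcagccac
Chac1: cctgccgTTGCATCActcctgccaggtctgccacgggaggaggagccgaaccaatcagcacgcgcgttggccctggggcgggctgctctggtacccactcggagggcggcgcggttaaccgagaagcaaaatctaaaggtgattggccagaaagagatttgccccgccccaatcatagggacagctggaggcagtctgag

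Fatty acid and lipid droplet genes differed in both directions. Of 25 compared, 6 were at least 2-fold higher and 7 lower, with a median of -0.00. Among carriers of fatty acids, Fabp3, the heart form, read 12069 in ES cells with 4OHT and 239 in line 21 spheres, against 7729.6 without 4OHT, 1672 in reverted cells and 5159 in line 42 spheres. Fabp4 and Fabp5, the adipocyte and skin forms, read 4.63 and 183 and 13.8 and 210.4, and Fabp7, the brain form, 5.61 and 266. Fabp4 and Fabp5 were similarly high in line 42 spheres (143 and 181), whereas Fabp3 there was 5159. Among enzymes of triglyceride synthesis, Mogat2 read 2967 in line 21 and 3511 in line 42 spheres, 60.5 and 78.0 in ES cells with and without 4OHT, and 194 in reverted cells, and Dgat2 was 10.6-fold higher. Fitm1, which helps package fat into droplets, was 15.3-fold higher. The droplet coat genes Plin2 and Plin3 and the droplet-enlarging Cidea were 9.25-fold, 4.33-fold and 16.4-fold lower. Plin2, Plin3 and Cidea were each brightest in ES cells with 4OHT. Against ES cells without 4OHT their log2 differences were -2.18, -1.64 and -2.63 in line 21 spheres. In line 42 spheres they were -0.41, -0.64 and -2.43. OP9 cells can become adipocytes. Of 9 compared adipocyte markers 1 was higher (Fabp4) and 2 lower. Adipoq at 12.2, Plin1 at 25.2 and Cfd at 12.7 in line 21 spheres were all below the filter's intensity of 29.2 on that array. The brighter marker Lpl read 325 in line 21 and 208 in line 42 spheres, against 233 and 95.5 in ES cells with and without 4OHT. Against ES cells without 4OHT, 2 of 8 markers were higher and 2 lower in line 21 spheres. In line 42 spheres 2 of 9 were higher and 1 lower. Cholesterol synthesis genes had a median of 0.28, with 2 of 17 at least 2-fold higher (Tm7sf2 and Hsd17b7) and 0 lower.

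Glutathione and redox genes were also mixed. Of 29 compared, 8 were at least 2-fold higher and 10 lower, with a median of -0.73. Gstm5, a mu-class glutathione transferase, read 5431 in line 21 and 5802 in line 42 spheres, 263 and 324 in ES cells with and without 4OHT, and 815 in reverted cells. Its relatives Gstm2 and Gstm1 were 5.29-fold and 2.35-fold higher, and whether their probes tell these similar genes apart was not tested. Targets of the oxidant sensor Nfe2l2 (Nrf2) did not differ in 1 direction. Nqo1, Srxn1 and Prdx1 were 7.83-fold, 4.13-fold and 3.02-fold lower, and Nfe2l2 itself 2.92-fold lower. Gclc and Gsr were 2.05-fold and 2.44-fold higher, and Gclm and Hmox1 were under 2-fold lower. Nqo1 was highest in ES cells with 4OHT, at 616 against 218 without, and read 73.2 and 80.6 in the line 21 and line 42 spheres. Superoxide dismutases Sod1 and Sod2 were 2.41-fold and 2.52-fold lower.

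Signalling genes are given by pathway, beside the 12.7% higher and 13.8% lower over all genes. In LIF and Stat3 signalling, 7 of 16 compared members were at least 2-fold lower and 3 higher, with a median of -0.92. Stat3 itself read 315 in ES cells with 4OHT and 57.2 in line 21 spheres, against 256 without 4OHT, 262 in reverted cells and 45.4 in line 42 spheres. Its targets Myc and Pim1 were 4.58-fold and 2.17-fold lower, and the receptor chain Lifr was dim on all arrays (25.1 in line 21 spheres, 50.2 in ES cells with 4OHT). Both sphere arrays were below the ES-type arrays for Stat3, Myc and Pim1. Mycn was 2.21-fold higher than in ES cells with 4OHT, but ES cells without 4OHT read 3684 and reverted cells 4118, above the 1679 of the spheres.

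In FGF signalling 6 of 20 compared members were higher and 4 lower. Beside the lower Fgf4 and the higher Fgf5, Fgf15 read 458 in line 21 and 22.0 in line 42 spheres, 24.4 and 122 in ES cells with and without 4OHT, and 290.0 in reverted cells, and Fgf8 and Fgf17 were 2.82-fold and 2.28-fold higher. Fgf17 was under 2-fold above ES cells without 4OHT, at 161 against 120, and read 77.2 in line 42 spheres. Spry4, a feedback inhibitor of the pathway, was 3.97-fold lower, while Spry2 and Dusp6, other feedback genes, were under 2-fold apart (158 and 138, 656 and 517). Among receptors Fgfr2 was 3.06-fold higher and Fgfr1 read 147 and 217.

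In Nodal and BMP signalling 6 of 19 compared members were higher and 4 lower. The ligand Bmp4, which induces PGCs in the embryo, read 888 in ES cells with 4OHT and 75.5 in line 21 spheres, against 903 without 4OHT, 462 in reverted cells and 7.99 in line 42 spheres, whereas Bmp7 was 4.67-fold higher (46.9 and 209) and also high in line 42 spheres (360.5). Nodal was under 2-fold apart, at 1649.7 and 1822. The BMP targets Id1 and Id2 were 2521 and 2729.8 and 1178 and 2107, also under 2-fold.

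In the Wnt pathway 8 of 23 compared members were higher and 2 lower, with a median of 0.89. The ligands Wnt8a and Wnt3 were 6.36-fold and 2.57-fold higher and Wnt6 2.89-fold lower. The receptors Fzd3 and Fzd2 were 7.99-fold and 7.46-fold higher, and the nuclear partner Lef1 13.5-fold. Lef1 read 71.6 in line 21 and 13.2 in line 42 spheres, 4.73 and 21.1 in ES cells with and without 4OHT, and 29.8 in reverted cells. Axin2, a common readout of the pathway, was too dim to be compared, at 6.56 and 4.78. In line 42 spheres Wnt8a, Fzd3 and Lef1 were low, at 10.1, 12.1 and 13.2.

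Of 26 compared Akt and PI3-kinase pathway genes 4 were higher and 5 lower, with a median of 0.08. Over all genes 12.7% were higher and 13.8% lower, so these counts alone do not set the pathway apart. The lower ones were Tcl1, Eras, the lipid phosphatase Inpp5d, Trib3 and Gsk3b. The higher ones were Foxo1, Phlpp1, Rps6kb1 and Pik3ca, with log2 differences of 1.01 to 1.27. Against ES cells without 4OHT 0 of 26 were at least 2-fold higher and 6 lower. With a pseudocount of 10, or with the filter at the 60th percentile, 2 members were higher instead of 4. That filter also left 3 lower ones instead of 5. Akt1, Akt2 and Mtor were under 2-fold apart, with log2 differences of -0.60, -0.12 and -0.51. Whether a probe of Akt1 also reads the transgene was not tested.

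Lineage genes other than germ cell genes were examined because the culture on OP9 is one that leads ES cells toward mesoderm and blood. Of 19 compared mesoderm and primitive streak genes 9 were higher and 1 lower (Bmp4), with a median of 0.67. Msx1 and Msx2, BMP-responsive homeobox genes, read 25.7 and 337 and 52.4 and 365. Eomes and Evx1 were 3.59-fold and 2.62-fold higher and Mesp1 and Lhx1 higher but dim, at 34.4 and 76.1. Mixl1, another streak gene, was too dim to be compared (7.96). As with T, Msx1 was low in line 42 spheres (30.9) and higher in reverted cells (178).

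Blood and endothelial genes had a median of -0.37, with 4 of 11 higher and 3 lower. Gata2, a factor of blood stem cells also found in other lineages, read 181 in line 21 and 183 in line 42 spheres, 34.7 and 16.7 in ES cells with and without 4OHT, and 43.1 in reverted cells. Lmo2, a partner of Gata factors in blood cells, read 59.0 in line 21 and 40.6 in line 42 spheres, 20.7 and 18.4 in ES cells with and without 4OHT, and 21.4 in reverted cells, and both sphere arrays exceeded the other 3. Etv2, a factor of blood and vessel precursors, and Epor, the erythropoietin receptor, were 2.50-fold and 2.02-fold higher, but neither exceeded ES cells without 4OHT. Tal1, Runx1, Fli1, Cd34 and Ptprc, which define blood or its precursors, were all too dim to be compared, between 4.16 and 8.40 in line 21 spheres. Pecam1 and Eng, surface proteins of endothelium and of ES cells, were 4.40-fold and 6.41-fold lower. Both were highest in ES cells with 4OHT, at 284 and 97.3 against 115 and 46.3 without. Line 42 spheres, at 134 and 63.8, were not below ES cells without 4OHT. Endoderm genes were lower in 5 of 9 compared members and higher in 1, with a median of -1.02. Gata6, the primitive endoderm factor, read 165 in ES cells with 4OHT and 17.7 in line 21 spheres, against 72.4 without 4OHT, 96.0 in reverted cells and 21.2 in line 42 spheres, and Apoe, an apolipoprotein, was 9.02-fold lower. Of 8 neuroectoderm genes 3 were higher (Nes, Sox11 and Dll1) and 1 lower (Neurod1). Nes read 45.5, 284, 81.3, 49.8 and 223 in ES cells with 4OHT, line 21 spheres, line 42 spheres, ES cells without 4OHT and reverted cells.

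Stromal genes overlap with this pattern. Of 17 compared OP9 markers 7 were higher (Mgp, Bgn, Cxcl12, Col5a1, Serpinf1, Col6a1 and Vcam1) and 3 lower (Thy1, Acta2 and Tagln). Cxcl12, the chemokine that draws PGCs and blood stem cells, read 109 in line 21 and 8.21 in line 42 spheres, 12.4 and 22.7 in ES cells with and without 4OHT, and 48.9 in reverted cells. Bgn, a small proteoglycan, read 143 in line 21 spheres, 10.6 in line 42 spheres, 10.5 in ES cells with 4OHT and 129.6 in reverted cells. Both genes were low in line 42 spheres, and Bgn was high in reverted cells, which were made on fibroblasts. S100a4, a calcium-binding protein of fibroblasts, read 279.6 in line 21 and 8.69 in line 42 spheres, 10.5 and 19.6 in ES cells with and without 4OHT, and 361 in reverted cells. The part of carried-over stromal cells in these values was not tested.

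Cell cycle genes as groups had medians close to the -0.01 of all genes, of which 12.7% were higher and 13.8% lower. Of 33 compared G1 and S genes 5 were higher and 4 lower, with a median of -0.09. Of 24 G2 and mitosis genes 4 were higher and 1 lower, with a median of 0.01. The cyclins differed among themselves. Beside the 77.6-fold higher Ccnd2, Ccne1 was 3.63-fold lower (2514 and 650.4) and Ccne2 2.95-fold higher, and Ccnd3 read 769.9 and 680.0. E2f5 was 4.00-fold higher, and also high in line 42 spheres (1062). The inhibitor Cdkn2a was 3.38-fold lower, while Cdkn1a (p21) read 692 and 981, above the 199 of ES cells without 4OHT. Cdc20, an activator of the anaphase-promoting complex, was 4.26-fold lower and Mki67 2.14-fold higher.

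Of 19 compared p53 targets 0 were at least 2-fold higher and 6 lower, with a median of -0.55. Against ES cells without 4OHT 2 were higher and 4 lower, with a median of -0.36. For line 42 spheres against those cells 3 were higher and 2 lower, with a median of 0.19. Pmaip1 (Noxa), a death-promoting Bcl2 relative, read 309.6 in ES cells with 4OHT and 4.72 in line 21 spheres, against 259.8 without 4OHT, 78.9 in reverted cells and 12.2 in line 42 spheres. Mdm2, which degrades p53, was highest in ES cells with 4OHT (2985) and read 1106 in line 21 spheres, near the 1201 of ES cells without 4OHT. Mcl1, a survival protein, was 3.58-fold lower, at 5754 and 1513, and read 1117 in line 42 spheres. Bok and Bnip3l, also of the Bcl2 family, were 2.95-fold and 3.84-fold higher. Bok, at 137, was near the 123 of ES cells without 4OHT and the 109 of line 42 spheres.

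Among DNA methylation genes Dnmt3l had the largest difference, followed by Uhrf2 and Dnmt3a in opposite directions. Dnmt3l, a cofactor of de novo methylation, read 5529.8 in ES cells with 4OHT and 176 in line 21 spheres, against 4218 without 4OHT, 3289 in reverted cells and 1909 in line 42 spheres. Dnmt3a was 3.88-fold lower, Dnmt3b under 2-fold (2621 and 1890.3, with 5767 in ES cells without 4OHT), and the maintenance enzyme Dnmt1 read 828 and 1137. Its partner Uhrf1 read 2584 and 1334, whereas the related Uhrf2 was 4.40-fold higher. Tet1, which starts demethylation and is active in PGCs, read 628 and 384, under 2-fold. In all, 4 of 18 compared members were lower and 1 was higher, with a median of -0.50.

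Imprinted genes, expressed from 1 parental copy according to its methylation, were split, with 5 of 18 compared members higher, 5 lower and a median of 0.00. Peg3, Ndn, Magel2, Plagl1 and Mest, all expressed from the paternal copy, were the higher ones, at 44.6-fold, 12.4-fold, 7.32-fold, 4.30-fold and 3.36-fold. Peg3 read 833 in line 21 and 136 in line 42 spheres, 18.9 and 37.9 in ES cells with and without 4OHT, and 241 in reverted cells. The lower ones were Igf2 and Slc38a4, also paternally expressed, and Phlda2, Meg3 and Slc22a18, maternally expressed. Phlda2 read 9049 in ES cells with 4OHT and 583 in line 21 spheres, against 6983 without 4OHT, 1071 in reverted cells and 5123 in line 42 spheres. Igf2 read 705 in ES cells with 4OHT and 32.1 in line 21 spheres, against 143 without 4OHT, 195 in reverted cells and 299 in line 42 spheres. Phlda2 and Meg3 were low in line 21 spheres and in reverted cells but not in line 42 spheres, where Meg3 read 820.3. H19, the non-coding neighbour of Igf2, was under 2-fold apart at 87.8 and 154 and read 1020.3 in line 42 spheres. Allele-specific expression was not measured.

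Of 33 compared chromatin regulators 6 were higher, 4 lower and 23 under 2-fold apart, with a median of 0.29. Over all genes 12.7% were higher and 13.8% lower, so the list was not less apart than genes in general. Smarca2 (Brm), the alternative ATPase of SWI/SNF complexes, read 240.1 in line 21 and 150.2 in line 42 spheres, 13.0 and 6.27 in ES cells with and without 4OHT, and 23.7 in reverted cells, while Smarca4 (Brg1), the ATPase of ES cell complexes, was level (991 and 982). Of Polycomb genes, Eed was 4.12-fold lower, Cbx7 3.64-fold lower and Jarid2 2.65-fold lower, while Ezh2 was level (2469 and 2362) and Ring1 4.61-fold higher from a dim 11.2.

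Adhesion genes differed member by member. Of 25 compared, 7 were higher and 6 lower, and of 28 integrin and matrix genes 3 were higher and 7 lower. Over all genes the shares were 12.7% and 13.8%. Cdh1 (E-cadherin) was 2.61-fold lower (2586 and 930.5) beside the higher Cdh2, and Epcam, another epithelial surface protein, was not lower (2956 and 4794). Vim, the intermediate filament of mesenchymal cells, read 1768 and 1597. Gja1 (connexin 43), which couples neighbouring cells, read 7718 in ES cells with 4OHT and 1025 in line 21 spheres, against 7656 without 4OHT, 7137 in reverted cells and 83.5 in line 42 spheres. Itga6, the laminin receptor chain, and the basement membrane genes Nid1 and Lamc1 were 4.37-fold, 5.29-fold and 2.87-fold lower. Both sphere arrays were lower than the ES-type arrays for Gja1, Itga6, Nid1 and Lamc1.

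Of 39 compared ribosomal protein genes 8 were at least 2-fold lower and 0 higher, with a median of -0.51. Beside the Rpl10 probe, Rps4l and Rpl39l, the lower ones were Rps24, Rpl11, Rpl24, Rps19 and Rpl14, with log2 differences of -1.60 to -1.13. Many others sit at the bright end of the array. Housekeeping controls had a median of -0.09, with Hprt higher (42.2 and 81.0), Rpl13a lower (13174 and 4071) and 13 of 15 less than 2-fold apart. Interferon and MHC class I genes had a median of -0.29, with 1 of 17 higher (Irf1) and 3 lower (Oas1a, Ifi35 and Stat2). Irf1 read 543 in line 21 spheres, against 127 and 589 in ES cells with and without 4OHT, so it was not above the latter. Of 4 compared macrophage markers 1 was lower (Cd68) and 0 higher, and of 7 fibroblast markers 1 was higher (S100a4) and 1 lower (Thy1).

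**Figure D4:**
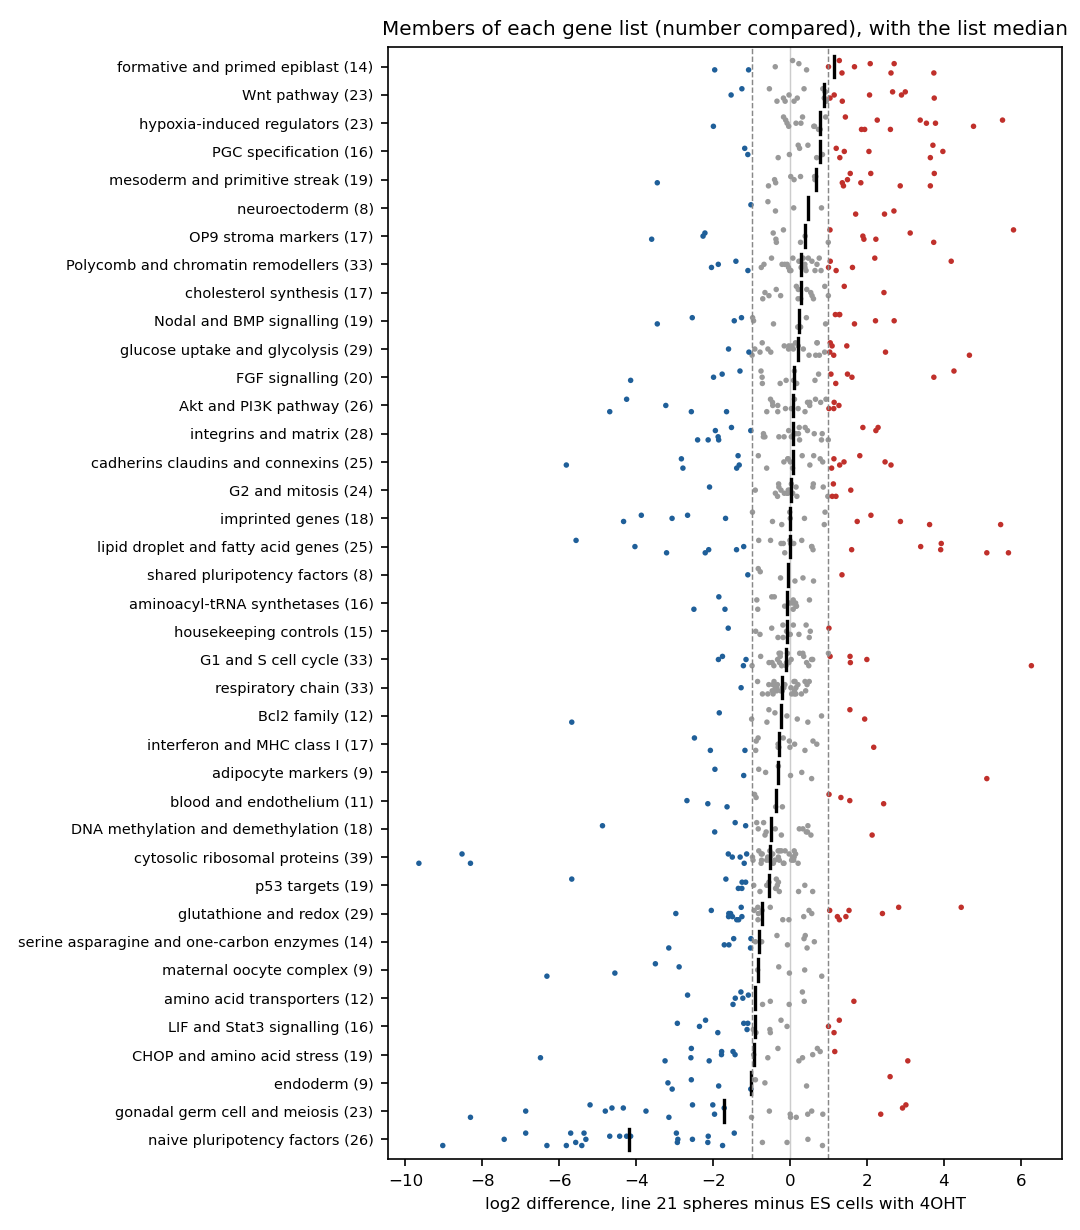
Log2 difference (line 21 spheres minus ES cells with 4OHT) of each compared member of each gene list, 1 dot per gene, red where at least 2-fold higher, blue where at least 2-fold lower, with a black bar at the list's median and the number compared in brackets. Dashed lines mark 2-fold; the naive list has its median at -4.20, and the medians of most other lists lie between the dashed lines.

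The differences were then set against 2 others that use neither of these arrays. Line 42 spheres minus line 21 ES cells without 4OHT contrasts spheres with ES cells in separate material, although line and kinase state are not matched there. Of 10032 genes compared there, 8.37% were at least 2-fold higher and 10.5% lower. Among the 9715 genes in both comparisons, 393 of the 1142 that were higher in line 21 spheres were also at least 2-fold higher in line 42 spheres (34.4%, against 7.81% of all 9715 genes). These 393 were 51.8% of the 759 genes higher in line 42 spheres, and 43 of the 1142 were at least 2-fold lower there. Of the 1297 lower genes 532 were also lower (41.0%, against 10.2%, and 53.7% of the 991 lower in line 42 spheres), and 32 were higher. The share was larger for the largest differences. Of genes at least 8-fold apart in line 21, 76 of 95 higher ones and 126 of 161 lower ones differed by 2-fold or more in the same direction in line 42. Pearson's r across the 9715 genes was 0.565. Of the 15 genes with the largest higher values 12 were also at least 2-fold higher in line 42 spheres, and of the 15 on the lower side 13 were also lower.

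**Figure D5:**
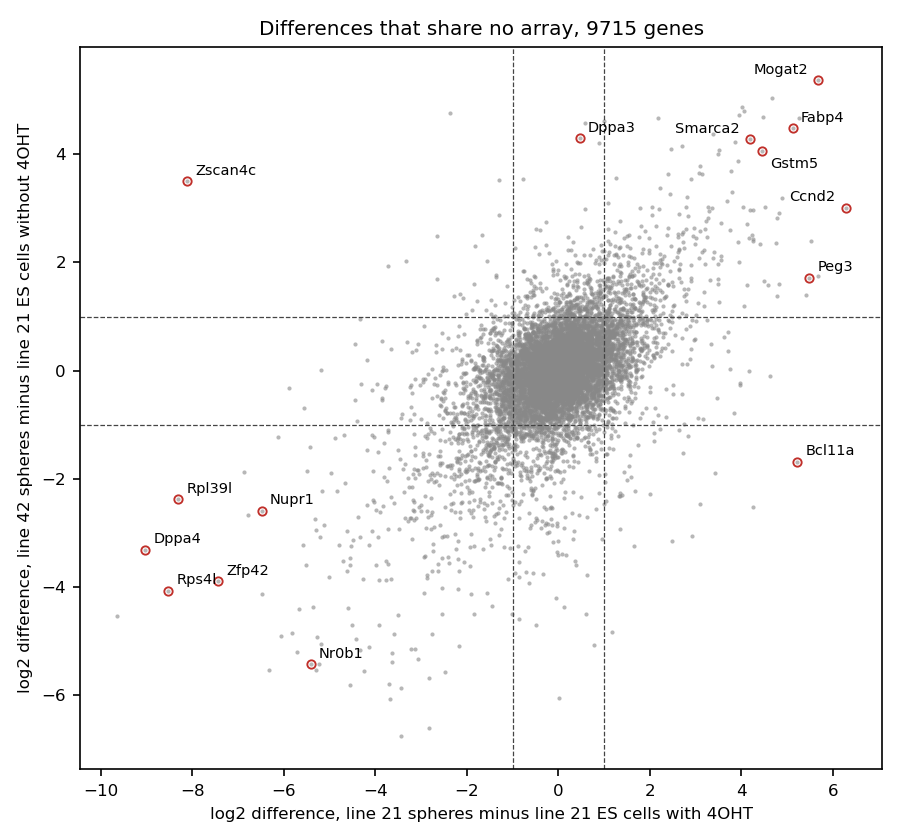
Log2 difference of line 21 spheres minus ES cells with 4OHT (horizontal) against that of line 42 spheres minus ES cells without 4OHT (vertical) for the 9715 genes compared in both, 1 dot per gene, with dashed lines at 2-fold. Dppa4, Zfp42 and Nr0b1 lie at the lower left, Mogat2, Fabp4 and Gstm5 at the upper right, Zscan4c at the upper left and Bcl11a at the lower right.

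Several genes separated the sphere arrays although both arrays came from 4OHT cultures on OP9. Zscan4c, low in line 21 and high in line 42 spheres, has been given above. Bcl11a had differences of 5.23 and -1.68, Fgf15 of 4.26 and -2.52 and Dppa3 of 0.47 and 4.30, the first value for line 21 spheres minus ES cells with 4OHT and the second for line 42 spheres minus ES cells without 4OHT. Mgp, Olig3, T and Msx1 were bright in line 21 spheres and between 10.1 and 30.9 in line 42 spheres. Genes that differed alike in both, by 2-fold or more, included the naive factors Zfp42 (-7.43 and -3.88), Nr0b1 (-5.41 and -5.43) and Tbx3 (-5.36 and -4.36), and on the higher side Egln3 (4.77 and 2.82), Mogat2 (5.68 and 5.37) and Smarca2 (4.19 and 4.28).

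Reverted cells minus ES cells without 4OHT, both of line 21, show which of the differences were also present after return to ES-like culture. Of 9939 genes compared there, 5.18% were at least 2-fold higher and 6.34% lower. Among the 9630 genes in both comparisons, 202 of 1099 higher genes were also higher in reverted cells (18.4%, against 4.63% of all), and 340 of 1305 lower genes were also lower (26.1%, against 6.13%). They made up 45.3% of the 446 genes higher and 57.6% of the 590 genes lower in reverted cells. Pearson's r across genes was 0.450. Among the naive factors, Zfp42 (-0.42), Nr0b1 (-0.54) and Dppa5a (-0.33) were under 2-fold apart in reverted cells on the log2 scale, whereas Dppa4 (-1.51), Dppa2 (-1.37) and Tcl1 (-1.63) were still lower by more than 2-fold. Rpl39l (-5.24), the Rpl10 probe (-4.04) and Phlda2 (-2.80) were further lower ones, and Efemp1 (3.69), T (3.60) and Peg3 (2.54) were among the higher ones. Of 20 oxygen-list members compared in reverted cells 4 were at least 2-fold higher than in ES cells without 4OHT (Bhlhe40 at 1.52, Adm at 1.35, Bnip3l at 1.13 and Pfkfb3 at 1.10) and 1 lower (Epas1), while Egln3 (-0.30) and Ero1a (-0.09) were within 2-fold.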

How the data were processed

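Total RNA was amplified to amino allyl antisense RNA and labelled with Cy5, per the labels' protocols, and hybridised to 1-colour Toray arrays. The values used are probe intensities on a linear scale that the authors deposited. How background and scale were handled, and why some cells are empty, is not given in the sources used here. Of 22871 probes 16264 carried 1 gene symbol and 6607 none. The 16087 array symbols were matched to RefSeq names of GRCm38.p6 (12239 current, 3787 through a synonym, 61 kept as given), which gave 16032 genes. Where a gene had several probes (221 genes), the one brightest on average was used.

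Intensities were taken to log2 with a pseudocount of 1 and centred on the median of the 18884 probes listed on all arrays. Fold differences on this scale understate those of dim genes. Genes with a value on both arrays, at or above the 40th percentile of at least 1, were compared in Python 3.11.15 with pandas 2.3.3 and numpy 2.4.6, and genes at least 2-fold apart were counted. With 1 array on each side no difference was tested, and the number of arrays limits the precision. Named genes are the 15 largest differences each way among genes reading at least 100 on the brighter array, genes without a value on 1 array and at least 100 on the other, and members of 42 gene lists, of which defining members and the largest differences are given. The comparison and the lists were chosen with earlier results of these data known. Promoter sequences came from RefSeq. Alternatives were a pseudocount of 10, no filter, a filter at the 60th percentile, no centring, quantile normalization and the mean of all probes of a gene.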

Additional observations from a re-analysis of the deposited data

Results flagged for a closer look

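Probes without a gene symbol took no part in the comparisons above. Of the 3385 such probes that passed the same filter, 317 were higher and 466 lower by 2-fold or more in line 21 spheres than in ES cells with 4OHT, or 23.1% either way. Between ES cells with and without 4OHT the share was 4.28% of 3273. The probes cannot be named from the annotation used here.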

How the results depend on the processing

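The count of genes at least 2-fold higher in line 21 spheres ranged from 918 to 1548 over the 6 alternatives, and that of lower genes from 1036 to 1692, and the medians over all genes stayed between -0.10 and 0.04. Without centring the higher genes were 41.98% of those counted and with quantile normalization 51.44%, against 47.89%. With the filter at the 60th percentile, which compared 7166 genes instead of 10208, 257 in place of 393 higher genes were also higher in line 42 spheres, and 123 in place of 202 were also higher in reverted cells. The corresponding counts of lower genes kept within 1.5 times of 532 and 340. List counts and medians depended most on the filter. Of the list counts recomputed under the alternatives 27 moved by more than 1.5 times, 13 of them with the filter at the 60th percentile and 6 without a filter, and so did 9 list medians, 5 of them with the stricter filter and 3 without one. With the stricter filter the medians were 1.44 for the oxygen list, 1.39 for mesoderm, -2.21 for endoderm, -3.72 for the maternal list and -2.33 for macrophage markers. Without a filter they were -0.54 for later germ cell genes, 0.20 for the Wnt pathway and -0.93 for the 2-cell list, and the pseudocount of 10 gave -3.70 for the 2-cell list. No list median and no log2 difference of a named gene changed sign while beyond 2-fold. Log2 differences of 730 named genes were recomputed, and 49 values under alternatives moved by more than 1.5 times, 47 of them with the pseudocount of 10. Members close to 2-fold, such as Epcam, Foxo1, Gjc1, Hprt, Id2, Kdm1a, Neurod1, Pfkm, Psat1, Rpl24, Shmt2, Slc2a1, Slc2a3, Slc3a2, Sod2 and Vcam1, crossed that line without centring or with quantile normalization and kept their direction. No paired analysis was possible because each group has 1 array, and for the same reason no array could be left out. Dim probes and empty cells limit what can be compared: 10208 of the 14353 genes with a value on both arrays passed the filter.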
